A study of Mus musculus with 4 samples.

Results

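The genes followed here are 7 protein kinases and 3 phosphatase subunits that act in haploid male germ cells, 10 of the 22274 genes in the deposited count table. They are the testis-specific serine kinases Tssk1, Tssk2, Tssk3, Tssk4 and Tssk6, the calcium/calmodulin-dependent kinase Camk4, the casein kinase 2 subunit Csnk2a2, the protein phosphatase 1 subunit Ppp1cc, and the calcineurin subunits Ppp3cc and Ppp3r2. The table's symbol column held 8 of these names as written, and the other 2 were taken by Ensembl identifier, since Tssk1 stands there as Tssk1b and Ppp1cc as PPP1CC. Poly(A) RNA came from testes of adult wild-type mice (WT) and adult mice with a Fam170a knockout (KO), with 2 libraries per genotype. No treatment is named. The genotype label of KO replicate 2 reads Fam171a. The sources used here do not give the strain, the age in weeks, the part of the gene removed, or whether each library came from its own animal. The p-values therefore rest on the spread between libraries, and that spread may be technical.

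During spermiogenesis, round haploid spermatids elongate, exchange histones for protamines, and build an acrosome and a flagellum. Much of this takes place after transcription has ceased, so protein phosphorylation and its reversal carry a large part of the control. TSSK kinases are made after meiosis: TSSK1 and TSSK2 act together in elongating spermatids, TSSK4 acts on the flagellar protein ODF2, and TSSK6 is needed in mice for the compaction of sperm chromatin. PP1 gamma, made as a ubiquitous and a testis-enriched splice form, and the sperm calcineurin of PPP3CC and PPP3R2 are the phosphatases best known for a part in mouse sperm formation and motility.

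Fam170a itself had 2240 and 3510 counts in the WT libraries and 1 count in each KO library. Library totals ran from 26029374 to 41684437 counts. Levels are given as CPM, the usual depth-normalized count with TMM factors, and fold changes as log2 of KO over WT with their standard error (SE). Markers of each germ cell stage were at levels above 0 in every library, and they differed between libraries. Such levels do not show in what proportions the cell types were present. The 8 elongating spermatid markers, protamines and flagellar proteins among them, summed to 12245 CPM in WT replicate 1 and 4893 in WT replicate 2, and to 6379 and 9593 in KO replicates 1 and 2. All 8 had the same order of libraries from high to low: WT replicate 1, KO replicate 2, KO replicate 1, WT replicate 2. The 8 round spermatid markers summed to 1891 and 1851 CPM in WT and to 2217 and 2249 in KO. Both KO libraries lay above both WT libraries for all 8, and Spaca7 was called higher at 0.71 (edgeR adjusted p = 0.0341). Over all tested genes, 29.4% had both KO libraries above both WT libraries and 27.9% had both below. Of 8 spermatocyte markers 7 were lower in both KO libraries than in both WT libraries, with a median fold change of -0.52, and Piwil1 was called lower at -1.61 (edgeR adjusted p = 0.00713). The most abundant of them, Ldhc, was the exception, and the sums were 4839 and 5000 CPM in WT and 4518 and 4730 in KO. Spermatogonial markers summed to 83.3 and 105.9 CPM in WT and 74.1 and 70.3 in KO, with 6 of 8 lower in both KO libraries. Their median fold change was -0.55, and Id4 was called lower at -1.05 (edgeR adjusted p = 0.04998). Among somatic cells, Sertoli cell markers summed to 93.2 and 39.9 CPM in WT and 27.9 and 37.8 in KO, and Leydig cell markers to 17.0 and 9.44 against 7.26 and 6.20. Peritubular and vascular markers summed to 53.4 and 44.6 CPM in WT and 70.1 and 48.8 in KO, of which Dcn alone gave 17.4 and 3.22 against 41.1 and 19.0, and the list's median fold change was -0.61. The sums of macrophage markers were 23.9 and 7.14 CPM in WT and 37.7 and 21.2 in KO. In tissue RNA, fewer cells of a type and less RNA per cell cannot be told apart.

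Sequence bears on these kinases in 2 ways, through their promoters and through stretches that closely related genes have in common. Tssk1 (chromosome 16, 17894223 to 17897922) and Tssk2 (17898637 to 17900024) lie on the forward strand with 714 bases between them, in GRCm38 as annotated by GENCODE M21. The sources used here do not name the authors' genome build. Starting at base 371 of both coding sequences lies their longest common run of 113 bases, at chr16:17894723-17894835 in Tssk1 and chr16:17899105-17899217 in Tssk2, which is shown because a read within it cannot be assigned to one of the pair.
Tssk1 and Tssk2: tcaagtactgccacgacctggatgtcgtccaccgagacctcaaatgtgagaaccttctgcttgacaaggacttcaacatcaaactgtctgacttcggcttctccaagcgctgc
Over whole transcripts the overlap was small: 9.34% of the 50-base stretches of Tssk2 also occurred in Tssk1, and 3.42% of those of Tssk1 in Tssk2.

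The promoters of Tssk6, Tssk2 and Tssk1 are shown because levels of Tssk6 and Tssk2 had the same order of libraries, and Tssk1 is the immediate neighbour of Tssk2. Tssk3, whose promoter is not shown, also had that order. Each is the 250 bases before the RefSeq start in GRCm38.p6, on the forward strand, at chr8:69901934-69902183, chr16:17898387-17898636 and chr16:17893953-17894202. Capitals in Tssk6 mark the letters TGACG, one side of the cAMP response element bound by CREB and CREM factors, and GC boxes (GGGCGG on either strand). Capitals in Tssk2 and Tssk1 mark the longest run the pair of promoters have in common, 11 bases.
Tssk6: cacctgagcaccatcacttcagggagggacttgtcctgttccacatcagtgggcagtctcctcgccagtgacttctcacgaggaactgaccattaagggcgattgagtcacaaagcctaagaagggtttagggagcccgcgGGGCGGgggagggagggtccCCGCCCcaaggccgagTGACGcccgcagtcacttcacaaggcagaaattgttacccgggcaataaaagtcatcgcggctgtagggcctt
Tssk2: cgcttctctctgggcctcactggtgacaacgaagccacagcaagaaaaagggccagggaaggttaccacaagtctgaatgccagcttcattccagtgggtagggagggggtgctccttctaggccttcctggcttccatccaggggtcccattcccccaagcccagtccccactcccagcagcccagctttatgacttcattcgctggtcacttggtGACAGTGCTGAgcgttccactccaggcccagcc
Tssk1: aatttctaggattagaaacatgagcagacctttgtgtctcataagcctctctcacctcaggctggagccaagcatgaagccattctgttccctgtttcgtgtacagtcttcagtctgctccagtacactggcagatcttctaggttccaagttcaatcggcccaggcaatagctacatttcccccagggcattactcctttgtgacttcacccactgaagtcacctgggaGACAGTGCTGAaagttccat
RefSeq promoters were matched for 8 of the 10 genes. Among these 8, the full element TGACGTCA was in none, against 1.55% of all 32851 promoter windows of this length. TGACG on either strand was in Tssk6 alone, 73 bases before its start, and in 17.8% of all windows. GC boxes were in Tssk6, Csnk2a2 and Ppp1cc, and in 32.7% of all windows. Tssk3, also among the 8, had none of these matches. A match describes the letters only.

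All 10 genes were expressed well enough to be tested, and none passed the test between genotypes. With edgeR's quasi-likelihood test and Benjamini-Hochberg adjustment over 15636 genes, 0 were called higher and 0 lower at an adjusted p under 0.05, where 0.454% of all tested genes were called in each direction and 0.908% in either. At an unadjusted p under 0.05, Ppp3cc and Ppp1cc were higher and none was lower, against 11.8% of all tested genes higher and 12.8% lower. DESeq2 also called 0 of the 10, with 3.18% of the genes it tested called higher and 5.02% lower, and limma-voom 0 of the 10, with 0.454% higher and 0.441% lower. The median log2 fold change of the 10 was 0.15, and that of all tested genes was 0.01. Leaving out WT replicate 1 gave the 10 a median of 0.22, leaving out WT replicate 2 a median of 0.06, and scaling by total counts 0.04. The median of all genes in these 3 fits was -0.02, -0.03 and -0.10. Both KO libraries lay above both WT libraries for 6 of the 10, namely Ppp3cc, Ppp1cc, Ppp3r2, Csnk2a2, Tssk4 and Tssk1, and in 29.4% of all tested genes. The reverse held for 0 of the 10 and 27.9% of all tested genes.

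**Figure D1:**
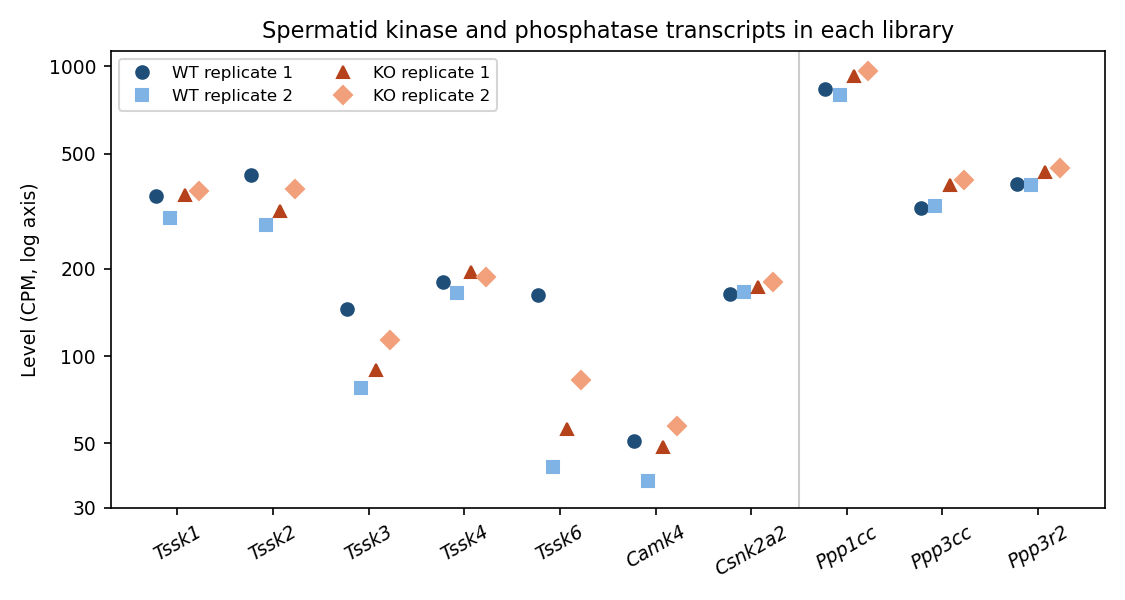
Levels of the 10 genes in each library, in CPM on a log axis, with kinases left of the grey line and phosphatase subunits right of it. Tssk6 spans 41.5 to 162 CPM, with both extremes in WT, whereas Ppp3r2 stays between 390 and 447 CPM.

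Per kilobase of merged exons, Tssk2 and Ppp1cc were the most abundant of the 10 in WT, and Camk4 and Csnk2a2 the least. On that scale WT means were 254 ± 70.9 CPM per kb for Tssk2 and 238 ± 8.69 for Ppp1cc (SD, n = 2), and the libraries of the pair overlapped. Next came Ppp3r2 at 129 ± 0.976, Ppp3cc at 110 ± 1.44 and Tssk4 at 101 ± 6.11 CPM per kb, 3 levels whose libraries did not overlap. Tssk1 at 88.7 ± 10.7, Tssk3 at 87.1 ± 37.2 and Tssk6 at 76.4 ± 64.1 CPM per kb overlapped one another, and libraries of Tssk3 and Tssk6 also reached the levels of Tssk4 and Ppp3cc. Csnk2a2 stood at 17.2 ± 0.193 and Camk4 at 13.5 ± 3.03 CPM per kb, without overlap. In KO, Ppp1cc came first with 276 ± 7.48 CPM per kb and Tssk2 next with 249 ± 30.9, still overlapping, and the order of the other genes was the same. Csnk2a2 has merged exons of 9565 bases that include long isoforms, and a shorter expressed isoform would place it higher.

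Tssk6, Tssk3 and Tssk2 differed more between the WT libraries than between the genotype means. TSSK6 phosphorylates targets in spermatids and is required for histone removal, and Tssk6 was at 162 CPM in WT replicate 1, 41.5 in WT replicate 2, 55.9 in KO replicate 1 and 82.6 in KO replicate 2. Both KO values thus fell between the WT values, which differed from each other 3.91-fold. The fold change of -0.55 ± 0.59 (SE) did not pass (edgeR adjusted p = 0.60). Tssk6 is a single exon on chromosome 8 (69902184 to 69903518) that overlaps Ndufa13 on the opposite strand, and 25.3% of its 50-base stretches occur there. Whether counting used strand is not given. Ndufa13 had 513 to 688 counts per library and Tssk6 1587 to 4229, and the part of the overlap in the Tssk6 counts was not tested.

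Tssk3, a kinase of haploid germ cells needed for mouse spermatogenesis, was at 145 and 77.9 CPM in WT replicates 1 and 2 and at 89.4 and 113.9 in KO replicates 1 and 2. Its groups overlapped in the same way as those of Tssk6, with a fold change of -0.13 ± 0.29 (SE; edgeR adjusted p = 0.819). Tssk2 was at 422 and 283 CPM in WT replicates 1 and 2 and at 316 and 376 in KO replicates 1 and 2, again with the KO libraries inside the WT range. Its fold change was -0.03 ± 0.20 (SE; edgeR adjusted p = 0.953).

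These 3 kinases had the order of libraries seen for all 8 elongating spermatid markers, an order that 6.69% of all tested genes had. On the scale of log2(CPM + 1), WT replicate 1 exceeded WT replicate 2 by 1.94 for Tssk6, 0.89 for Tssk3 and 0.58 for Tssk2. KO replicate 2 exceeded KO replicate 1 by 0.55, 0.35 and 0.25. The median size of these differences over all tested genes was 0.17 in WT and 0.12 in KO, and only 0.0576% of tested genes had a larger difference between the WT libraries in that direction than Tssk6. The part of the elongating spermatid markers in these levels was not tested. Calls on these kinases depended on 1 WT library at a time: without WT replicate 1, Tssk6 was higher in KO by 0.68 (edgeR adjusted p = 0.0158), and without WT replicate 2, it was lower in KO, at -1.24 (edgeR adjusted p = 0.00207). Tssk3 was called lower without WT replicate 2, at -0.52 (edgeR adjusted p = 0.0343), and stood at 0.33 without WT replicate 1 (edgeR adjusted p = 0.0775). Without WT replicate 1, 8.53% of all tested genes were called higher and 12.6% lower, and without WT replicate 2, 2.45% higher and 3.01% lower. None of the 10 was called without KO replicate 1, where 0.0809% of genes were called higher and 0.0684% lower, or without KO replicate 2, where 0.0809% were called higher and 0.0498% lower.

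**Figure D2:**
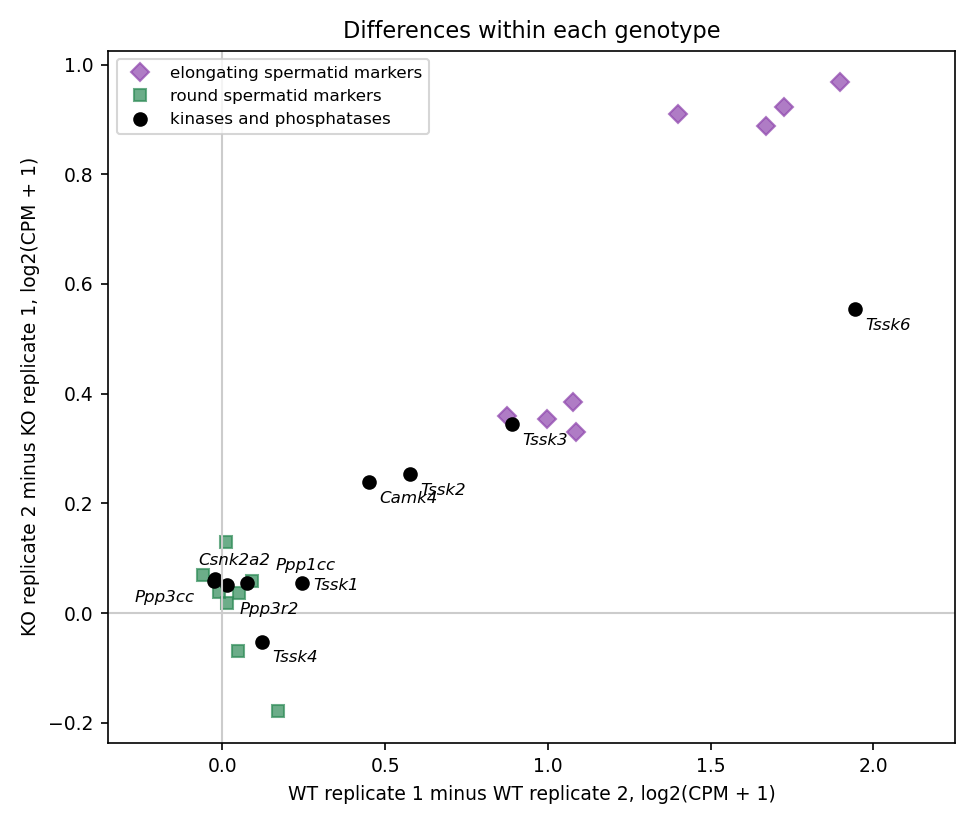
Difference between the libraries of each genotype on the log2(CPM + 1) scale, with WT replicate 1 minus WT replicate 2 on the horizontal axis and KO replicate 2 minus KO replicate 1 on the vertical axis, for the 10 genes and for 8 markers each of elongating and round spermatids. Tssk6 (1.94 and 0.55) and Tssk3 (0.89 and 0.35) lie toward the elongating spermatid markers, and the phosphatase subunits lie near 0 on both axes with the round spermatid markers.

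Tssk1 and Tssk4 differed less between the WT libraries, although without WT replicate 2 their fold changes were 0.03 and 0.07. Tssk1, whose protein acts with that of Tssk2, was at 356 and 300 CPM in WT replicates 1 and 2 and at 359 and 373 in KO replicates 1 and 2. The KO libraries lay above both WT libraries, by a small margin over WT replicate 1, and the fold change of 0.16 ± 0.10 (SE) did not pass (edgeR adjusted p = 0.390). Tssk1 overlaps exons of Dgcr2 on the opposite strand, at 110 to 127 CPM. Tssk4 was at 181 and 166 CPM in WT and at 195 and 188 in KO. Its groups did not overlap either, at a fold change of 0.14 ± 0.08 (SE; edgeR adjusted p = 0.342). None of its 50-base stretches, nor any of Tssk3, occurs in another annotated gene.

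Camk4, which phosphorylates protamine 2 in mouse spermatids, was the least abundant of the 10 in CPM. It stood at 51.0 and 37.1 CPM in WT replicates 1 and 2 and at 48.5 and 57.4 in KO replicates 1 and 2, with overlapping groups and a fold change of 0.27 ± 0.18 (SE; edgeR adjusted p = 0.389). Without WT replicate 1 it was called higher at 0.46 (edgeR adjusted p = 0.0216), and without WT replicate 2 it stood at 0.04 (edgeR adjusted p = 0.855). Camk4 is on chromosome 18, as is Fam170a. Csnk2a2, the casein kinase subunit whose loss in mice gives sperm with round heads, was at 164 and 166 CPM in WT and at 173 and 181 in KO. It moved least of the 10 between the highest and the lowest library, 1.11-fold, and its fold change of 0.10 ± 0.08 (SE) did not pass (edgeR adjusted p = 0.443). With scaling by total counts the fold change of Csnk2a2 was just below 0.

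The 3 phosphatase subunits were each higher in both KO libraries than in both WT libraries, by small amounts. Ppp3cc, the catalytic subunit of sperm calcineurin, was at 324 and 330 CPM in WT and at 389 and 405 in KO. The gap between genotypes was wider than that between replicates, and its fold change of 0.28 ± 0.08 (SE) had the smallest p of the 10, at an edgeR adjusted p of 0.119. Ppp3r2, the regulatory subunit that pairs with it, was at 394 and 390 CPM in WT and at 431 and 447 in KO, a fold change of 0.17 ± 0.07 (SE; edgeR adjusted p = 0.234). Ppp3r2 lies within Grin3a on the same strand, where exons do not overlap and Grin3a had 8 to 31 counts. Ppp1cc was at 837 and 795 CPM in WT and at 925 and 962 in KO, a fold change of 0.21 ± 0.08 (SE; edgeR adjusted p = 0.176). Its count is uncertain, since 40.0% of its 50-base stretches occur in other annotated genes. Most of those stretches occur in the copy Ppp1ccb, which is not among the genes named in the deposited counts. Counts per gene do not separate the splice forms of Ppp1cc. The round spermatid markers, also higher in both KO libraries, had a median fold change of 0.26, and their part in these levels was not tested. When libraries were scaled to the summed counts of those markers in place of TMM, the median of the 10 genes was -0.10 with 2 of 10 above 0, and that of all genes was -0.25. Because those markers were higher in both KO libraries, such scaling lowers fold changes across genes, so the change of sign is no separate result.

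**Figure D3:**
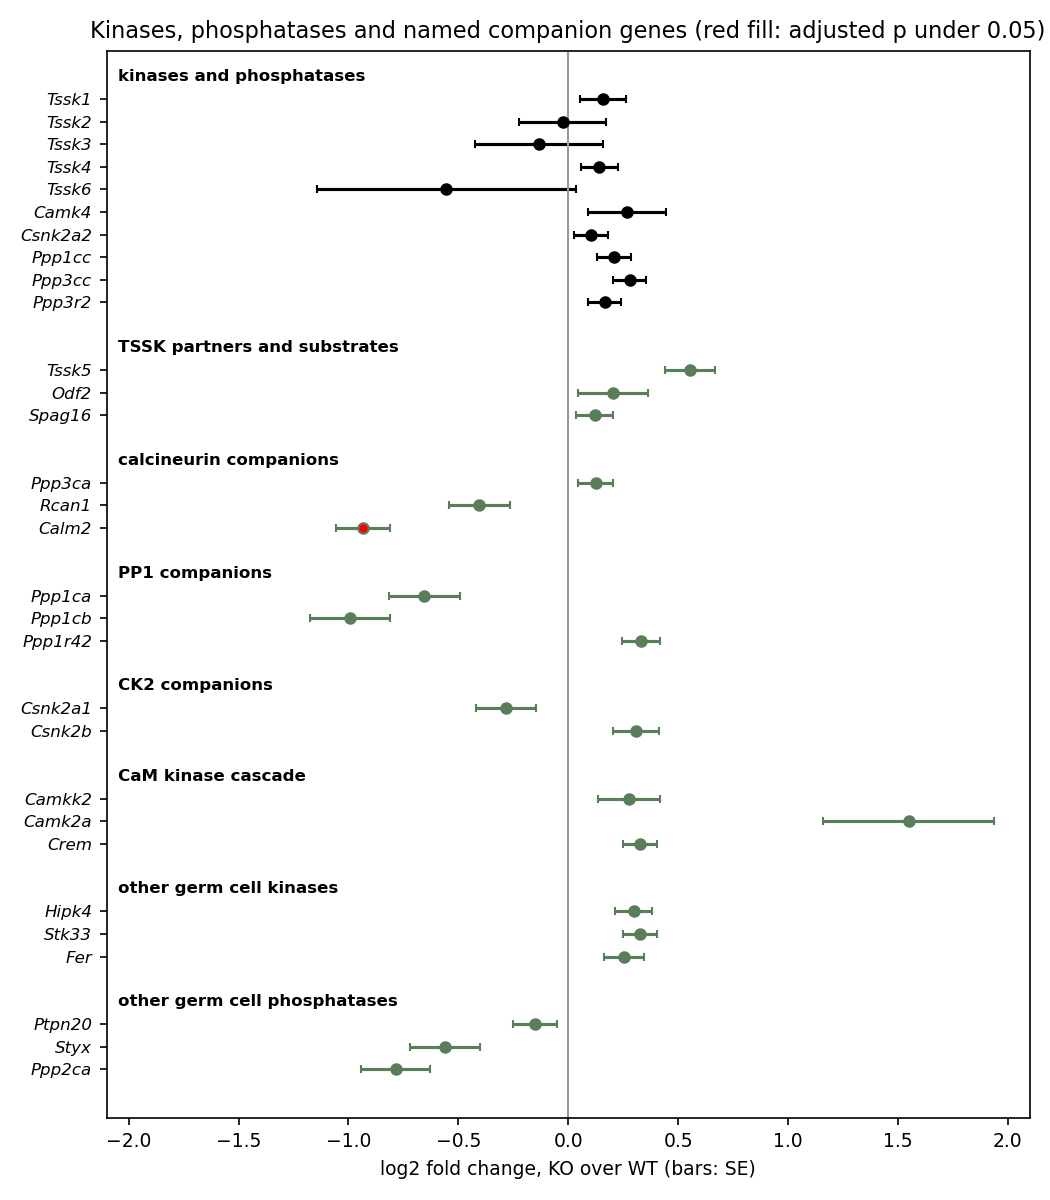
Log2 fold change of KO over WT with its SE for the 10 genes (black) and for companion genes named by rule (green), grouped by list. Calm2, filled red at -0.93, is the single gene shown with an edgeR adjusted p under 0.05. Ppp1cb (-0.99), Ppp2ca (-0.79) and Ppp1ca (-0.65) lie below 0. The 3 phosphatase subunits lie above it, as does their relative Ppp3ca (0.13).

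Partners, regulators and relatives of these enzymes were read from 7 lists of 55 genes, of which 54 were tested. Calm2 was called lower and 0 genes were called higher, where 0.454% of all tested genes were called in each direction. Before adjustment, 8 had an edgeR p under 0.05 on the higher side and 6 on the lower side. Of all tested genes, 11.8% and 12.8% did. DESeq2 called 1 higher and 5 lower, where it called 3.18% and 5.02% of all genes it tested. In limma-voom, calls numbered 0 higher and 1 lower, against 0.454% and 0.441% of all tested genes. The median fold change of the 54 was 0.04. Calm2, which encodes calmodulin, the calcium sensor that activates calcineurin and Camk4, was at 176 and 219 CPM in WT replicates 1 and 2 and at 107 and 99.97 in KO replicates 1 and 2. Both KO values were far below both WT values, a fold change of -0.93 ± 0.12 (SE; edgeR adjusted p = 0.0431). Its call ended without KO replicate 1 (edgeR adjusted p = 0.179) and without KO replicate 2 (0.323), and with scaling by DESeq2 size factors (0.0532) or total counts (0.0525). Spermatocyte markers, which also lay lower in KO for 7 of 8 genes, moved in the direction of Calm2, and their part was not tested.

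Some relatives of the phosphatases that are active in many tissues had fold changes below 0, though none of the following genes passed the edgeR test. Ppp1cb was at 39.0 and 53.6 CPM in WT and at 25.3 and 21.3 in KO (-0.99 ± 0.18, SE; edgeR adjusted p = 0.0817). Ppp1ca was at 11.8 and 15.1 CPM in WT and at 8.52 and 8.58 in KO (-0.65 ± 0.16, SE; edgeR adjusted p = 0.110). The catalytic subunit Ppp2ca of protein phosphatase 2A was at 22.9 and 29.3 CPM in WT and at 16.1 and 14.3 in KO (-0.79 ± 0.16, SE; edgeR adjusted p = 0.0892). Styx, a pseudophosphatase needed in mice for spermatid development, was at -0.56, and Rcan1, an inhibitor of calcineurin, at -0.40. Other relatives moved less and not in 1 direction: Ppp3ca and Ppp3cb were at 0.13 and 0.07, and Ppp3r1 and Ppp4c both at -0.10. Stretches that other annotated transcripts have in common made up 41.0% of Ppp2ca and 16.4% of Ppp1cb, so these counts are uncertain. Spermatocyte and spermatogonial markers also lay lower in KO, and their part in these levels was not tested. DESeq2 called Ppp1cb, Ppp1ca, Ppp2ca and Styx lower, and edgeR called Ppp1cb and Ppp2ca lower when no filter on low counts was used.

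On the other side, with both KO libraries above both WT libraries and no call by edgeR, stood Tssk5 at 0.55 (16.6 and 17.1 CPM in WT, 26.0 and 23.6 in KO), which DESeq2 called higher. The same held for Crem, the activator of genes in round spermatids, at 0.33, for the flagellar kinase gene Stk33 at 0.33, for Hipk4, a kinase of spermatid head shaping, at 0.30, and for Ppp1r42 at 0.33. Csnk2b, the regulatory subunit of casein kinase 2, was at 806 and 682 CPM in WT and at 895 and 948 in KO, a fold change of 0.31, while the catalytic subunit Csnk2a1 was at -0.28. Camk2a, at 0.307 and 0.314 CPM in WT and 1.02 and 0.817 in KO, had a fold change of 1.55 at a very low level. Odf2 and Spag16, proteins of the sperm tail that TSSK kinases phosphorylate, were at 0.20 and 0.12, and Ppp3ca, Camkk2, Fer and Ptpn20 at 0.13, 0.28, 0.25 and -0.15.

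The order of libraries seen for Tssk6, which 6.69% of all tested genes had, recurred in 6 of the 54 companion genes. They are named here after their values were seen: Tsks, Tsacc, Prm2, Cdk16, Tesk1 and Dusp13. Prm2 is also one of the 8 elongating spermatid markers. Tsks, the substrate that binds TSSK1 and TSSK2, was at 402 and 232 CPM in WT replicates 1 and 2 and at 292 and 341 in KO replicates 1 and 2. Tsacc, the cochaperone that activates TSSK6, was at 74.8 and 46.9 CPM in WT and at 48.8 and 68.1 in KO. For Tsks and Tsacc the KO libraries lay between the WT libraries, and fold changes were 0.00 and -0.05.

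Ppp1cc, Ppp3cc, Ppp3r2 and Csnk2a2 each made up most of the counts of their catalytic or regulatory pair or trio in every library. Ppp1cc took 94.3% (95% interval 94.0 to 94.6) and 92.0% (91.7 to 92.3) of the counts of the 3 PP1 catalytic genes in WT replicates 1 and 2, and 96.5% (96.3 to 96.7) and 97.0% (96.8 to 97.2) in KO replicates 1 and 2. The Clopper-Pearson intervals cover counting error only. Ppp3cc took 73.6% and 74.0% of calcineurin catalytic counts in WT and 75.9% and 76.0% in KO. Ppp3r2 took 96.1% and 95.9% of the regulatory pair in WT and 96.6% and 96.7% in KO, and Csnk2a2 89.9% and 88.8% of its pair in WT and 90.9% and 92.3% in KO. For these 4 shares the genotypes did not overlap. The interval of WT replicate 1 overlapped that of KO replicate 1 for Csnk2a2, and those of both KO replicates for Ppp3r2. In level, 29.4% of all tested genes had both KO libraries above both WT libraries and 27.9% both below. No such reference was made for shares, which use the same counts as the fold changes above. Group means differed by 3.57 percentage points for Ppp1cc, 2.26 for Csnk2a2, 2.15 for Ppp3cc and 0.66 for Ppp3r2. With 2 libraries against 2, an exact two-sided permutation test cannot go below p = 0.333, so no test was made. Per kilobase the shares of Ppp3cc were 90.1% to 91.2%.

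The share of Tssk1 in the Tssk1 and Tssk2 pair did not follow genotype. It was 45.8% and 51.5% in WT replicates 1 and 2 and 53.2% and 49.8% in KO replicates 1 and 2. The share was lowest in WT replicate 1, where elongating spermatid markers were highest. It was highest in KO replicate 1, whereas those markers were lowest in WT replicate 2. Their part in the share was not tested. Summed as one feature, the pair had a fold change of 0.06 (edgeR adjusted p = 0.824).

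**Figure D4:**
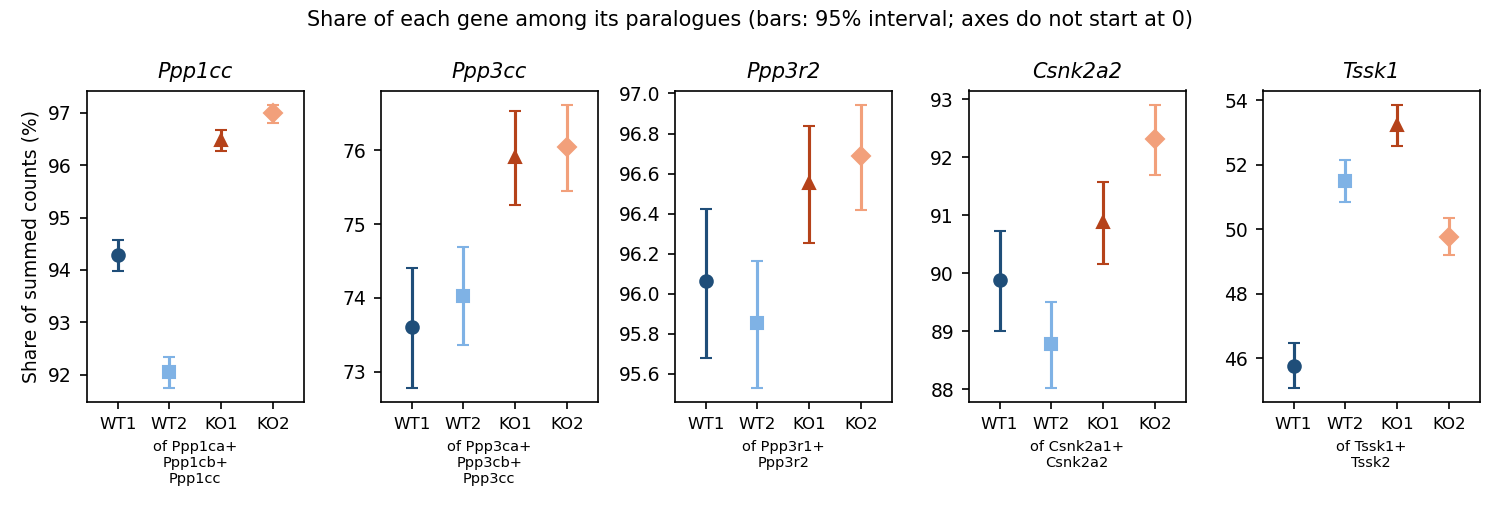
Share of each gene in the summed counts of its close relatives, in percent, per library with 95% Clopper-Pearson intervals. Axes do not start at 0. Ppp1cc, Ppp3cc, Ppp3r2 and Csnk2a2 have higher shares in both KO libraries than in both WT libraries, and Tssk1 overlaps between 45.8% and 53.2%.

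Likeness of pattern was measured as the root mean square difference, over 4 libraries, between mean-centred log2(CPM + 1) values and the median pattern of the 10 genes. Among 7785 other genes whose mean reached 10 CPM, Rnf19b, Chmp1b, Efcab6, Mprip and Pdxdc1 were nearest, at 0.0055 to 0.0085. As many as 525 genes lay within 0.05, and of the 10 genes themselves Tssk1 (0.0242) and Ppp1cc (0.0488) did, with Tssk6 farthest at 0.677.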

How the data were processed

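Whole-number read counts per Ensembl gene were used as the authors deposited them, with no normalization visible in the values. Tools named in the submitters' processing notes, with no roles, are HISAT2 2.1.0, Bowtie2 2.2.8, RSEM, StringTie 1.3.1 and fastp 0.18.0. The sources used here do not state the annotation, strandedness or treatment of multi-matching reads. GENCODE M21 named 22219 of 22274 identifiers.

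The test was that of edgeR 4.0.16 under R 4.3.3 (quasi-likelihood, two-sided, genotype as the only term, TMM factors). filterByExpr (minimum count 10, minimum total 15) kept 15636 genes, and p-values were adjusted over all of them by the Benjamini-Hochberg method at a threshold of 0.05. The SE is the fold change divided by the square root of F. The fit was also tested on simulated data. Alternatives were other scalings and filters, DESeq2 1.42.0, limma-voom (limma 3.58.1), summed paralogues, a block on the replicate number, and leaving out each library in turn.

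Libraries of a genotype differed beyond sampling noise, with a chi-square per degree of freedom of 36.9 for WT and 8.82 for KO. Against KO replicates 1 and 2 it was 29.7 and 25.7 for WT replicate 1, less than within WT, and 32.3 and 51.1 for WT replicate 2. Correlations of log2(CPM + 1) for WT replicate 1 were 0.9911 with WT replicate 2 and 0.9903 and 0.9905 with KO replicates 1 and 2. Column names gave each library's genotype and number, with the letter R before the number in WT and the letters RS in KO. The members and lists were chosen with earlier results of these data known. Named companion genes are those past the threshold and the 3 of smallest p in each list.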

Additional observations from a re-analysis of the deposited data

How the results depend on the processing

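None of the 10 genes was called with another scaling, filter, tool, threshold or replicate block, or with paralogues summed. Leaving out 1 library gave 0 to 2 of them higher and 0 to 2 lower, 13 to 1374 of all genes higher and 8 to 2034 lower, and 0 to 9 companion genes higher and 0 to 7 lower. Such a fit takes its spread from the other genotype's pair.

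Over all genes, where 71 were called in each direction, the calls higher and lower were 171 and 280 without a filter, 384 and 606 with DESeq2, and 11 and 7 at a threshold of 0.01. With scaling by total counts 32 were higher (50 lower), and the median of all genes moved from 0.01 to -0.10. Companion genes called lower numbered 0 with DESeq2 size factors, total counts or a threshold of 0.01, 3 without a filter and 5 with DESeq2, which also called 1 higher. With the replicate number as a block, 6 genes were higher and 3 lower, and 0 companion genes were lower. Nothing in the labels says that the numbers pair samples, and deviations of equal numbers correlated at -0.24 across genes. With numbers crossed, a pairing chosen after seeing the data, 298 genes were higher and 604 lower, and 1 companion gene was higher and 3 lower.

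Some fold changes among the 10 genes turned sign. With round spermatid scaling they were -0.10 for Tssk1, -0.11 for Tssk4, -0.15 for Csnk2a2, -0.046 for Ppp1cc and -0.090 for Ppp3r2. Tssk2 was at 0.0062 with limma-voom and at 0.065 summed with Tssk1, and Csnk2a2 at -0.0070 with total counts. Without 1 library, Tssk2 ranged from -0.30 to 0.23 (0.10 without KO replicate 1), Tssk3 from -0.52 to 0.33 (0.03 without KO replicate 1) and Tssk6 from -1.24 to 0.68. Apart from the general lowering under round spermatid scaling, why these values moved was not tested. With 2 libraries per genotype, the spread between replicates is itself poorly known.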

Other observations

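Beyond the lists, 646 tested genes had the word kinase in the deposited description and 262 had phosphatase, a choice made after the data were seen. Of the former, edgeR called 0 higher and 3 lower, a share of 0.464% against 0.908% of all tested genes called in either direction. At an unadjusted p under 0.05 there were 61 on the higher and 92 on the lower side, where 11.8% and 12.8% of all tested genes were. Calls numbered 4 higher and 25 lower in DESeq2, which called 3.18% and 5.02% of all genes, and 0 and 3 in limma-voom. The 3 were Mark2, a kinase that regulates microtubule binding proteins, which fell from a mean of 41.2 ± 1.09 CPM in WT to 17.8 ± 3.0 in KO (SD, n = 2), Cks2, a partner of cyclin-dependent kinases needed for meiosis in mice, and Rack1, a ribosomal scaffold that binds protein kinase C. Their fold changes were -1.21, -1.40 and -1.11 with edgeR adjusted p of 0.0333, 0.0276 and 0.0235. Spermatocyte and spermatogonial markers moved in the same direction, and their part was not tested. Of the phosphatase genes, 0.763% were called. Before adjustment 31 passed on the higher and 29 on the lower side, and the calls of DESeq2 were 3 higher and 12 lower. With edgeR, Tpte was called higher at 0.93 (edgeR adjusted p = 0.0457), and Dut, which splits dUTP, lower at -1.53 (0.0382). All 5 calls ended without KO replicate 1 and without KO replicate 2, where edgeR adjusted p was 0.0988 to 0.367, and with the replicate number as a block. Tpte was also not called with limma-voom (0.0513), DESeq2 size factors (0.0526) or total counts (0.0788), nor Dut with total counts (0.0508).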
